A study of Bos taurus with 24 samples.

Results

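The comparison described here asks whether fibroblasts, reached only through shared medium, alter how bovine muscle satellite cells respond to the change of serum that starts differentiation. It is the difference between 2 responses: the change over the first 24 h in coculture, minus the same change in monoculture. It uses 16 of the 24 libraries of the series, 4 in each of coculture at 24 h, coculture in proliferation, monoculture at 24 h and monoculture in proliferation, as the library titles give them. All 11937 genes of the deposited count table were tested, and those whose responses differed between the cultures are described.

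Satellite cells are the resident stem cells of skeletal muscle, here isolated from the bovine longissimus dorsi, with the genotype given as WT. Per the labels, cells of 3 satellite cell lines, at passage 3, were mixed, and fibroblasts at passage 10 were used as their partners. The seeding density was 8000 cells per cm2, and coculture used plates with a membrane of 0.4 µm pores, which lets proteins and metabolites through and keeps the cells apart. All 4 groups were grown in High Glucose DMEM with 20% Fetal Bovine Serum, and the proliferation libraries come from the 5th day. The 24 h libraries come from cells moved after 5 days to High Glucose DMEM with 10% Horse Serum. Whether an empty insert sat in the wells of monocultures, and which donors the lines came from, is not given. No label describes the replicates as separate cultures, so the p-values reflect only how these libraries vary, which could be technical variation.

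Lowering the amount of growth factors in the medium makes cultured satellite cells leave the cell cycle, switch on muscle genes and later fuse into myotubes. Serum also carries lipoprotein cholesterol, and cells sense the sterol content of their membranes through the SREBP2 transcription factor, which drives the enzymes of cholesterol synthesis when sterols are low. Fibroblasts secrete matrix proteins, proteases and growth factors, and in muscle they surround the niche in which satellite cells lie.

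Totals ran from 16.76 to 22.17 M counts in coculture at 24 h, 11.54 to 34.96 M in coculture proliferation, 16.22 to 23.87 M in monoculture at 24 h and 14.48 to 18.21 M in monoculture proliferation. Nuclear ribosomal RNA took 4.07% of counts in coculture 24 h replicate 2 and at most 1.4% in each of the other 15 libraries. Without that library 5670 genes were called, against 6026 with it. Coculture 24 h replicates 3 and 4 were sequenced on lane 7 and the other 14 libraries on lane 6. A number in the sample descriptions, whose meaning is not given, is 1 in monoculture at 24 h and 2 in the other 3 groups, so whatever it records cannot be told apart from that group. Of 18 markers of the muscle lineage, 5 were listed, DES, ITGA7, MEF2C and NCAM1 among them, with a summed level of 165 to 192 CPM (counts scaled to an equal library size) in coculture at 24 h, 174 to 190 in coculture proliferation, 246 to 268 in monoculture at 24 h and 130 to 134 in monoculture proliferation. Most of this sum came from DES and ITGA7, so it says little of the other markers. DES and ITGA7 had means of 100 and 57.9 CPM in coculture at 24 h and 125 and 31.2 CPM in coculture proliferation. In monoculture they had 101 and 131 CPM at 24 h and 72.1 and 35.1 CPM in proliferation. The defining regulators PAX7, MYF5, MYOD1 and MYOG are not analysed here, and no gene of the table falls under 6 counts in a library that entered the fit. Fibroblast markers, collagen genes above all, were abundant in every group and are given beside the matrix genes. The labelled cell type thus rests on few markers in these data.

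The response differed between the cultures for 6026 of the 11937 genes, which is 50.5% (edgeR quasi-likelihood test, Benjamini-Hochberg adjusted p under 0.05, the threshold for each gene called below). The response was higher in coculture for 2896 genes (24.3%) and lower for 3130 (26.2%). Called higher means that the ratio of 24 h to proliferation was larger in coculture, whichever way the gene moved. With library sizes alone as the scaling, 5643 genes were called and 58.8% of them were higher, against 48.1% in the fit reported here. The differences were mostly small, with a median size of 0.417 on the log2 scale among called genes, and 69 genes were at least 2-fold higher and 92 at least 2-fold lower. The median difference over all genes tested was -0.01.

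The change over the first 24 h was smaller in coculture. In coculture 5159 genes passed the test (43.2%), of which 2504 rose (21%) and 2655 fell (22.2%), and in monoculture 8179 passed (68.5%), of which 4092 rose (34.3%) and 4087 fell (34.2%). At least 2-fold rises numbered 123 in coculture and 404 in monoculture. The log2 responses had an SD over genes of 0.332 in coculture and 0.495 in monoculture. Across the 11937 genes, which are not independent replicates, Pearson's r between the 2 responses was 0.603 and Spearman's rho 0.529.

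Each called gene was classed by the tests and signs of its 2 responses. Because both responses enter the difference, the classes sort the genes and are no further test. Most called genes were blunted in coculture, 4385 in all (72.8% of those called): 2156 rose in monoculture and 2229 fell there, with a smaller or undetected change in coculture. Of these, 1348 still changed in the same direction in coculture and 3037 had no coculture response that passed the test. A reversed direction was called for 605 genes (10%), 249 of them rising in coculture and falling in monoculture. A further 731 genes (12.1%) responded in coculture only as far as the tests go, 284 by a rise and 447 by a fall. Enhanced responses were few, with 68 larger rises and 106 larger falls in coculture. The other 131 genes had no response that passed in either culture. The classes compare changes and do not say at which time the cultures were apart. Of the 6026 genes, 3828 (63.5%) differed between coculture and monoculture in proliferation and not at 24 h, 667 (11.1%) at 24 h and not in proliferation, 1229 (20.4%) at both times and 302 (5.01%) at neither, by the test between cultures at each time. Over all genes, 7041 differed between the cultures in proliferation and 2836 at 24 h. Of the 4385 blunted genes, 2808 (64%) differed in proliferation and not at 24 h. The reversed class shrank to 401 genes with library sizes alone and to 401 when the lane 7 libraries were left out.

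**Figure D1:**
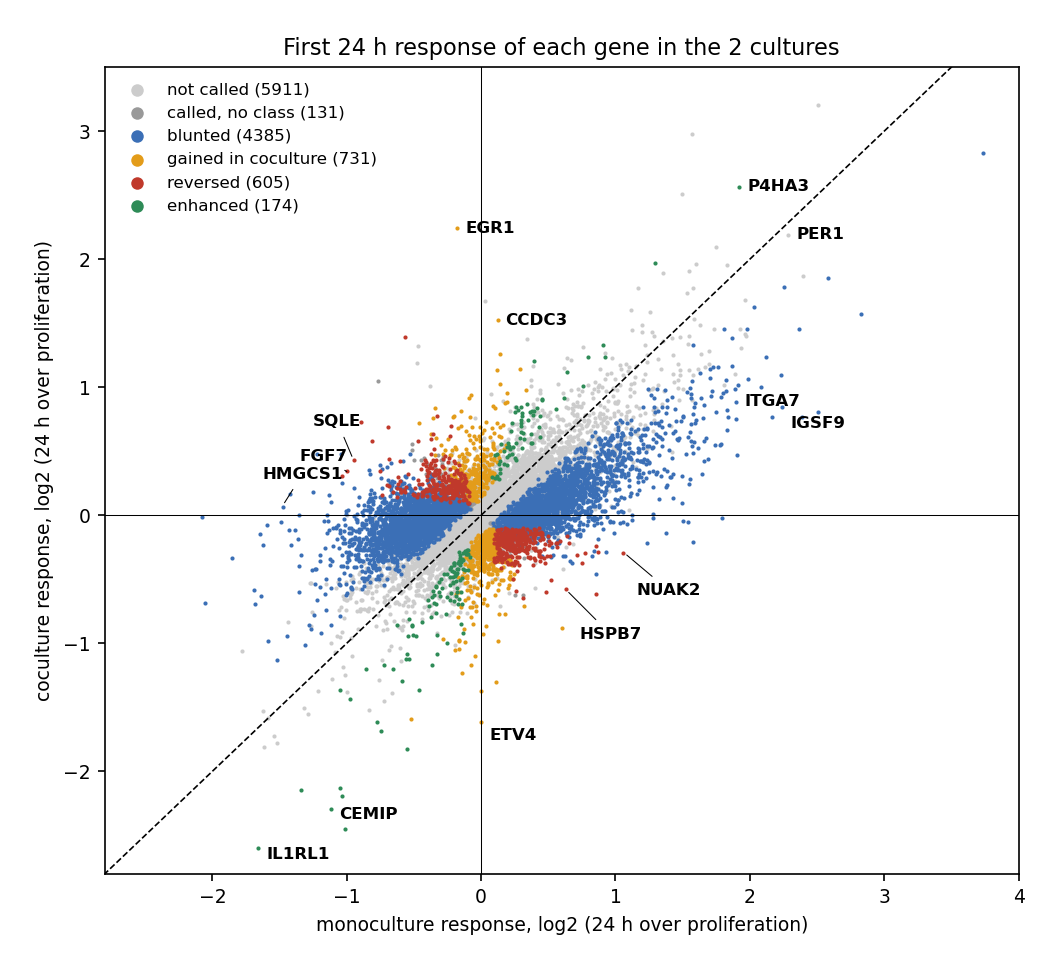
Response of each of the 11937 genes over the first 24 h (log2 of 24 h over proliferation) in coculture (vertical axis) and monoculture (horizontal axis), coloured by class, with the dashed line marking equal responses. Blunted genes (4385) spread along the horizontal axis, EGR1 and CCDC3 stand above the line with almost no monoculture response, and CEMIP and IL1RL1 lie below it among the enhanced falls.

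Cholesterol synthesis and uptake genes were the list with the largest share called higher. Of 36 measured members, 21 were called higher and 3 lower, which is 58.3% and 8.33% against 24.3% and 26.2% over all genes, and the median difference was 0.32. In coculture 11 members rose and 6 fell, whereas 4 rose and 24 fell in monoculture. The median response was 0.07 in coculture and -0.34 in monoculture. Leaving out any of the 16 libraries gave 21 higher and 2 or 3 lower. The shares and medians of the other lists are likewise to be read against 24.3% higher, 26.2% lower and a median of -0.01 over all genes.

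HMGCS1, the HMG-CoA synthase at the start of the mevalonate route to sterols, was at 63.03, 60.02, 59.2 and 63.8 CPM in coculture at 24 h and 60.1, 58.9, 58.7 and 57.3 CPM in coculture proliferation. In monoculture the values were 61.8, 56.1, 54.2 and 57.7 CPM in monoculture at 24 h and 149, 174, 155 and 161 CPM in monoculture proliferation. The 4 monoculture proliferation libraries stood above the other 12, which overlapped. The response was 0.07 in coculture, which did not pass the test, and -1.48 in monoculture, a difference of 1.54 ± 0.0725 (SE; adjusted p = 1.24e-15). HMGCS1 lies on chromosome 20, from 31431059 to 31456871 in the coordinates of the deposited annotation, whose genome build is not stated in the sources used here.

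SQLE, the squalene epoxidase that leads into sterol synthesis, went the opposite way in the 2 cultures. It was at 26.6, 28.4, 23.5 and 25.6 CPM in coculture at 24 h and 19.6, 19.3, 19.1 and 19.2 CPM in coculture proliferation. Monoculture values were 25.01, 25.2, 26.9 and 25.4 CPM in monoculture at 24 h and 47.9, 52.8, 48.9 and 47.9 CPM in monoculture proliferation. In coculture the 24 h libraries lay above the proliferation libraries, and in monoculture they lay below them. The difference was 1.38 ± 0.0852 (SE; adjusted p = 6.14e-13), from a rise of 0.43 in coculture and a fall in monoculture (-0.95). Levels of the 2 cultures at 24 h overlapped, with a log2 difference of coculture over monoculture of 0.02 at 24 h and -1.36 in proliferation.

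MSMO1, a sterol methyl oxidase, moved in the same 2 directions. It was at 39.2, 34.8, 34.03 and 35.5 CPM in coculture at 24 h and 27.01, 28.5, 31.3 and 29.4 CPM in coculture proliferation. Without fibroblasts it was at 32.9, 29.6, 32.3 and 32.01 CPM in monoculture at 24 h and 67.5, 71.8, 61.2 and 58.8 CPM in monoculture proliferation. The groups of each culture did not overlap, and the difference of the responses was 1.34 ± 0.0837 (SE; adjusted p = 6.18e-13). CYP51A1, which removes a methyl group from lanosterol, was named after its values were seen and also rose in coculture and fell in monoculture. Its responses were 0.52 in coculture and -0.35 in monoculture. IDI1, which isomerises the isoprenoid building block, differed by 0.95, without a coculture response that passed the test (0.14).

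INSIG1, which holds SREBP precursors in the endoplasmic reticulum and is itself an SREBP target, was named after its values were seen. It was at 11.4, 14.2, 12.5 and 13.1 CPM in coculture at 24 h and 15.3, 13.1, 13.8 and 14.6 CPM in coculture proliferation. Its levels in cells grown alone were 14.5, 13.5, 16.1 and 16.1 CPM in monoculture at 24 h and 26.8, 29.7, 28.3 and 27.8 CPM in monoculture proliferation. Monoculture proliferation was the high group. Its difference of 0.78 ± 0.137 (SE; adjusted p = 2.95e-05) came with a fall in monoculture (-0.91) and a value of -0.14 in coculture that did not pass. INSIG2, a related protein, rose by 0.37 in coculture and fell by 0.39 in monoculture on the log2 scale. SREBF2, which encodes SREBP2 and was named after its values were seen, rose in both, by 0.48 in coculture and 0.23 in monoculture, and its difference of 0.24 was lost when the trend with gene span was removed (0.10). CYP39A1, which hydroxylates an oxysterol, had a larger rise in coculture (0.85) than in monoculture (0.26).

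Fatty acid synthesis genes had 9 of 21 members called higher and 2 lower (42.9% and 9.52%), with a median difference of 0.16. SCD, the desaturase that makes oleate, was at 11.1, 11.8, 8.82 and 10.4 CPM in coculture at 24 h and 15.9, 11.96, 13.3 and 12.6 CPM in coculture proliferation. Cells grown alone had 9.24, 11.996, 13.004 and 10.7 CPM in monoculture at 24 h and 41.1, 44.6, 35.03 and 43.2 CPM in monoculture proliferation. Monoculture proliferation stood above the other 3 groups, and SCD fell in both cultures: it fell by 0.33 in coculture and fell by 1.86 in monoculture on the log2 scale. The difference was 1.52 ± 0.148 (SE; adjusted p = 3.51e-09). ELOVL6, a fatty acid elongase, and FADS1, a desaturase of polyunsaturated fatty acids, differed by 0.79 and 0.56, with falls in monoculture (-0.90 and -0.69) and no coculture response that passed the test.

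**Figure D2:**
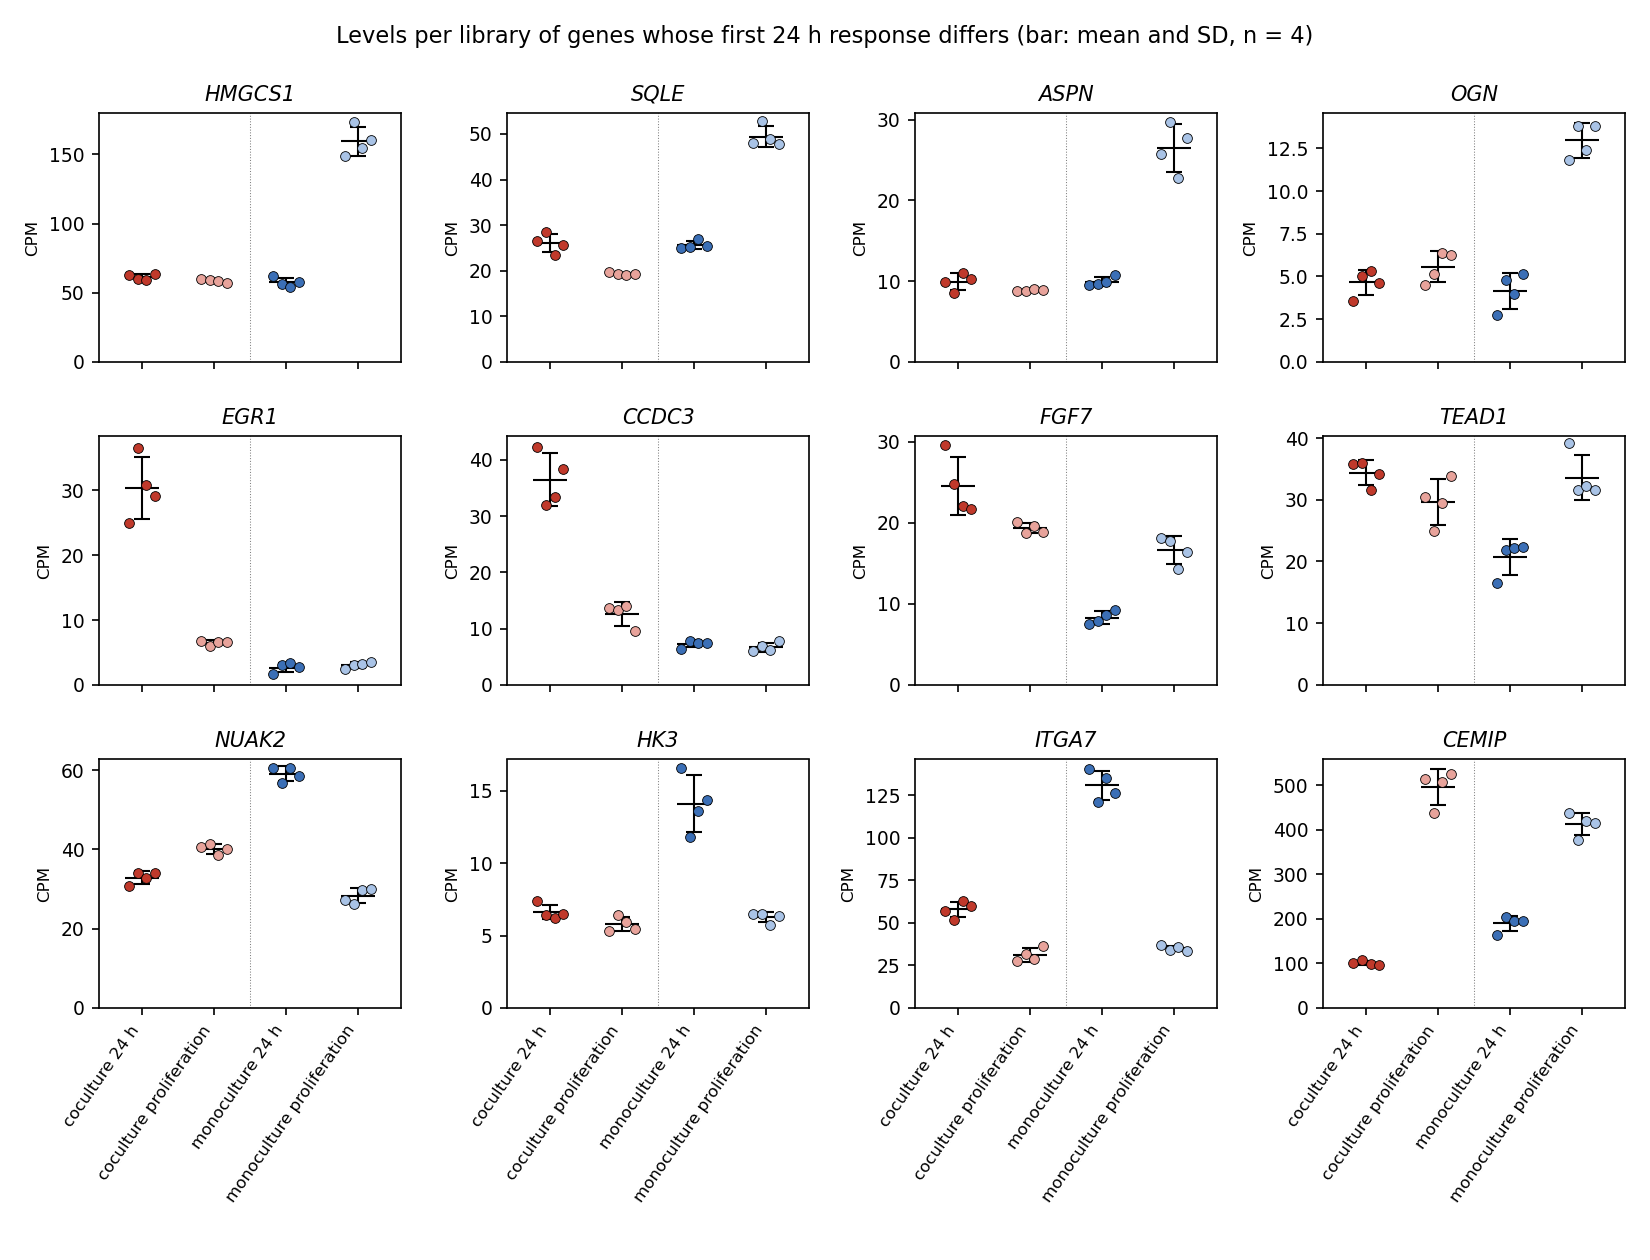
Levels in CPM of 12 genes in each of 16 libraries, with coculture groups in red and monoculture groups in blue, 24 h in the dark and proliferation in the light shade, and bars for the mean and SD of 4 libraries. HMGCS1, SQLE, ASPN and OGN are high in monoculture proliferation and low elsewhere, EGR1 and CCDC3 are high in coculture at 24 h, and HK3, ITGA7 and NUAK2 are high in monoculture at 24 h.

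EGR1, an immediate early transcription factor induced by growth factors within minutes, had the largest difference of the genes named. It was at 24.9, 36.6, 30.9 and 29.1 CPM in coculture at 24 h and 6.78, 5.98, 6.69 and 6.62 CPM in coculture proliferation. In monoculture EGR1 was at 1.63, 3.05, 3.37 and 2.70 CPM in monoculture at 24 h and 2.48, 3.09, 3.17 and 3.58 CPM in monoculture proliferation. The coculture 24 h libraries stood above the 12 others, coculture proliferation came next, and the monoculture groups were lowest and overlapped. EGR1 rose by 2.24 in coculture and had a response of -0.18 in monoculture that did not pass the test, a difference of 2.42 ± 0.223 (SE; adjusted p = 1.53e-09). It lies on chromosome 7, from 49826480 to 49830253.

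Of 29 measured immediate early genes 7 were called higher and 6 lower (24.1% and 20.7%), with a median difference of -0.03. The split moved with the processing. It was 8 higher and 3 lower with library sizes alone, 9 and 2 with the trend against gene span removed, 7 and 8 with a stricter level filter and 5 and 7 without monoculture 24 h replicate 1. NR4A2, a nuclear receptor, was at 9.15, 8.32, 7.85 and 7.56 CPM in coculture at 24 h and 7.20, 5.04, 6.04 and 5.31 CPM in coculture proliferation. The monoculture libraries had 3.90, 4.51, 4.42 and 4.96 CPM in monoculture at 24 h and 5.40, 5.88, 5.75 and 4.46 CPM in monoculture proliferation. Coculture at 24 h stood above the other 3 groups, and the difference was 0.78 ± 0.178 (SE; adjusted p = 0.000588). NR4A1, of the same family and named after its values were seen, rose by 0.61 in coculture, with a monoculture response of 0.07 that did not pass.

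FOSL1, a FOS family subunit of the AP-1 transcription factor, was among the immediate early genes called lower. It was at 6.82, 6.52, 6.01 and 5.54 CPM in coculture at 24 h and 12.01, 11.4, 12.9 and 11.1 CPM in coculture proliferation. For monoculture the levels were 6.66, 9.20, 9.53 and 7.60 CPM in monoculture at 24 h and 8.07, 7.63, 8.44 and 8.77 CPM in monoculture proliferation. The coculture groups did not overlap and the monoculture groups did. FOSL1 fell by 0.93 on the log2 scale in coculture, with 0.02 in monoculture, a difference of -0.95 ± 0.164 (SE; adjusted p = 2.2e-05). JUNB, a JUN family subunit, rose by 0.57 in monoculture and had 0.00 in coculture, which did not pass the test.

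ERK feedback genes, which the ERK kinase pathway switches on and many of which restrain it, had 2 of 19 members called higher and 8 lower (10.5% and 42.1%), with a median difference of -0.04. Those lower numbered 5 with lane as a covariate, 5 without the lane 7 libraries and 5 with a stricter level filter. Only coculture at 24 h had libraries on both lanes, so both lane settings are nearly the same check. None rose and 9 fell in coculture, and 2 rose and 13 fell in monoculture. ETV4, an ETS transcription factor, was at 1.26, 2.28, 1.49 and 1.71 CPM in coculture at 24 h and 5.94, 4.87, 4.57 and 5.54 CPM in coculture proliferation. Against these, monoculture gave 2.89, 4.72, 4.42 and 4.08 CPM in monoculture at 24 h and 4.04, 3.89, 4.59 and 3.82 CPM in monoculture proliferation. The coculture 24 h libraries were below the other 3 groups, and the difference of -1.62 ± 0.24 (SE; adjusted p = 2.59e-06) was the lowest of the named genes. CCND1, cyclin D1, fell further in coculture, with log2 responses of -1.29 in coculture and -0.59 in monoculture, a difference of -0.70 ± 0.114 (SE; adjusted p = 9.3e-06). The members called higher were SPRED1 (0.79) and SPRY1 (0.69), inhibitors of the pathway that fell in monoculture (-0.98 and -0.79) and had no coculture response that passed.

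Extracellular matrix genes were the list with the most blunted rises. Of 62 measured matrix components, 37 were called lower and 9 higher (59.7% and 14.5%, against 26.2% and 24.3% over all genes), and 36 were blunted rises. In coculture 38 rose and 5 fell, and in monoculture 50 rose and 7 fell, with median responses of 0.32 and 0.52. The median difference was -0.26. With library sizes alone 28 were lower and 9 higher, and with the trend against gene span removed 40 and 5. COL1A1, the main chain of type I collagen, was at 40192, 37668, 43098 and 39977 CPM in coculture at 24 h and 25666, 24853, 25336 and 25206 CPM in coculture proliferation. Corresponding monoculture levels were 41050, 39690, 44967 and 40123 CPM in monoculture at 24 h and 19205, 17888, 17602 and 16753 CPM in monoculture proliferation. The 24 h libraries of the 2 cultures overlapped, and in proliferation coculture lay above monoculture. COL1A1 rose by 0.67 in coculture and 1.21 in monoculture, a difference of -0.54 ± 0.055 (SE; adjusted p = 6.26e-09). COL7A1, the collagen of anchoring fibrils, differed by -0.93.

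ASPN, asporin, a proteoglycan of the small leucine-rich family that binds collagen, was among the matrix components called higher. It was at 9.93, 8.58, 11.1 and 10.2 CPM in coculture at 24 h and 8.76, 8.81, 8.98 and 8.88 CPM in coculture proliferation. In monoculture ASPN was at 9.49, 9.61, 9.90 and 10.7 CPM in monoculture at 24 h and 25.7, 29.7, 22.8 and 27.8 CPM in monoculture proliferation. Monoculture proliferation stood above the other 3 groups, whose 12 libraries lay close together. The difference was 1.59 ± 0.133 (SE; adjusted p = 3.51e-10), with a fall in monoculture (-1.42) and 0.17 in coculture, which did not pass. OGN, osteoglycin, of the same family, was at 3.59, 5.03, 5.33 and 4.64 CPM in coculture at 24 h and 4.50, 5.17, 6.37 and 6.26 CPM in coculture proliferation. It was at 2.76, 4.76, 4.001 and 5.15 CPM in monoculture at 24 h and 11.8, 13.8, 12.4 and 13.8 CPM in monoculture proliferation, again highest in monoculture proliferation, and the difference was 1.39 ± 0.219 (SE; adjusted p = 6.38e-06).

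ASPN and OGN lie beside each other on chromosome 8 with OMD, osteomodulin, and ECM2, a related matrix protein, within 84019267 to 84148223. OMD and ECM2 were named after their values were seen. ECM2 was at 20.6, 20.4, 25.03 and 23.4 CPM in coculture at 24 h and 23.6, 22.2, 26.4 and 25.9 CPM in coculture proliferation. In monoculture the values were 16.5, 24.1, 20.7 and 23.5 CPM in monoculture at 24 h and 51.9, 62.6, 50.2 and 58.1 CPM in monoculture proliferation. Monoculture proliferation was again the high group. The difference was 1.27 ± 0.156 (SE; adjusted p = 1.46e-07) for ECM2 and 1.15 ± 0.291 (SE; adjusted p = 0.00167) for OMD, so the 4 neighbours were all called higher. DCN, decorin, on chromosome 5, was at 298, 270.2, 276 and 264 CPM in coculture at 24 h and 276, 248, 274 and 253 CPM in coculture proliferation. Satellite cells alone gave 119.9, 188, 176 and 171 CPM in monoculture at 24 h and 286, 323, 291 and 298 CPM in monoculture proliferation. Here monoculture at 24 h was the low group, and DCN fell by 0.87 on the log2 scale there, with 0.08 in coculture that did not pass.

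Markers of fibroblasts and fibro-adipogenic progenitors include several matrix genes. Of 30 markers 23 were listed, of which 5 were called higher and 7 lower (21.7% and 30.4%), with a median difference of -0.04. Their summed level was 64000 to 72000 CPM in coculture at 24 h and 45400 to 46800 in coculture proliferation. In monoculture it was 66500 to 73800 at 24 h and 38100 to 40700 in proliferation. Most of the sum came from the collagen genes COL1A1 and COL3A1, so it says little of the other markers. Their means were 40200 and 21100 CPM in coculture at 24 h and 17900 and 14800 CPM in monoculture proliferation. PDGFRA, the receptor that marks fibro-adipogenic progenitors, was at 71.8, 72.6, 67.1 and 65.3 CPM in coculture at 24 h and 63.9, 57.2, 59.3 and 59.9 CPM in coculture proliferation. Monoculture values were 48.9, 49.4, 52.02 and 49.2 CPM in monoculture at 24 h and 69.4, 66.2, 63.5 and 65.8 CPM in monoculture proliferation. Monoculture at 24 h was the low group. PDGFRA rose by 0.21 in coculture and fell by 0.41 in monoculture on the log2 scale, a difference of 0.61 ± 0.0821 (SE; adjusted p = 5.2e-07). It was the 1 reversed marker of the list, more of which were called lower than higher, so it does not stand for the list. COL1A1 (-0.54) was among those lower and DCN (0.95) among those higher. In RNA from whole wells, fewer cells of a type and less RNA per cell cannot be told apart, and the part of these markers in the matrix result was not tested.

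Matrix remodelling genes had 27 of 47 members called lower and 7 higher (57.4% and 14.9%), 24 of them blunted rises, with a median difference of -0.27. With library sizes alone 23 were lower and 11 higher. PLAUR, the receptor of the protease urokinase, was at 51.3, 51.3, 54.5 and 51.6 CPM in coculture at 24 h and 41.96, 43.6, 45.95 and 45.8 CPM in coculture proliferation. The values without fibroblasts were 65.9, 58.1, 58.1 and 59.1 CPM in monoculture at 24 h and 21.4, 22.04, 25.2 and 23.7 CPM in monoculture proliferation. The 4 groups did not overlap, and monoculture was the highest at 24 h and the lowest in proliferation. PLAUR rose in both cultures, by 0.24 in coculture and 1.38 in monoculture, a difference of -1.14 ± 0.0695 (SE; adjusted p = 5.22e-13).

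MMP11, a matrix metalloproteinase, differed by -0.83. ADAMTS5, which cleaves the proteoglycan aggrecan, was among the members called higher. It was at 16.1, 12.98, 13.98 and 12.5 CPM in coculture at 24 h and 16.99, 13.01, 15.3 and 13.7 CPM in coculture proliferation. In monoculture ADAMTS5 was at 5.15, 9.32, 8.90 and 9.16 CPM in monoculture at 24 h and 23.8, 25.1, 23.7 and 26.6 CPM in monoculture proliferation. The monoculture groups were furthest apart, with the coculture groups between them and overlapping, and the difference was 1.52 ± 0.165 (SE; adjusted p = 1.98e-08).

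Enhanced responses included 2 genes of hyaluronan, a large matrix sugar. CEMIP, which takes part in breaking hyaluronan down, was at 100.2, 108, 99.7 and 97.2 CPM in coculture at 24 h and 514, 438, 507 and 526 CPM in coculture proliferation. For monoculture the levels were 164, 204, 196 and 196 CPM in monoculture at 24 h and 439, 378, 420.1 and 415 CPM in monoculture proliferation. Coculture at 24 h was lowest and monoculture at 24 h next, and the proliferation groups overlapped. CEMIP fell by 2.29 in coculture and fell by 1.12 in monoculture on the log2 scale, a difference of -1.18 ± 0.114 (SE; adjusted p = 3.51e-09). TNFAIP6, which binds hyaluronan, rose by 1.20 in coculture and 0.40 in monoculture. P4HA3, a subunit of the enzyme that hydroxylates collagen prolines, rose by 2.57 in coculture and 1.92 in monoculture, a difference of 0.65 ± 0.154 (SE; adjusted p = 0.000854).

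**Figure D3:**
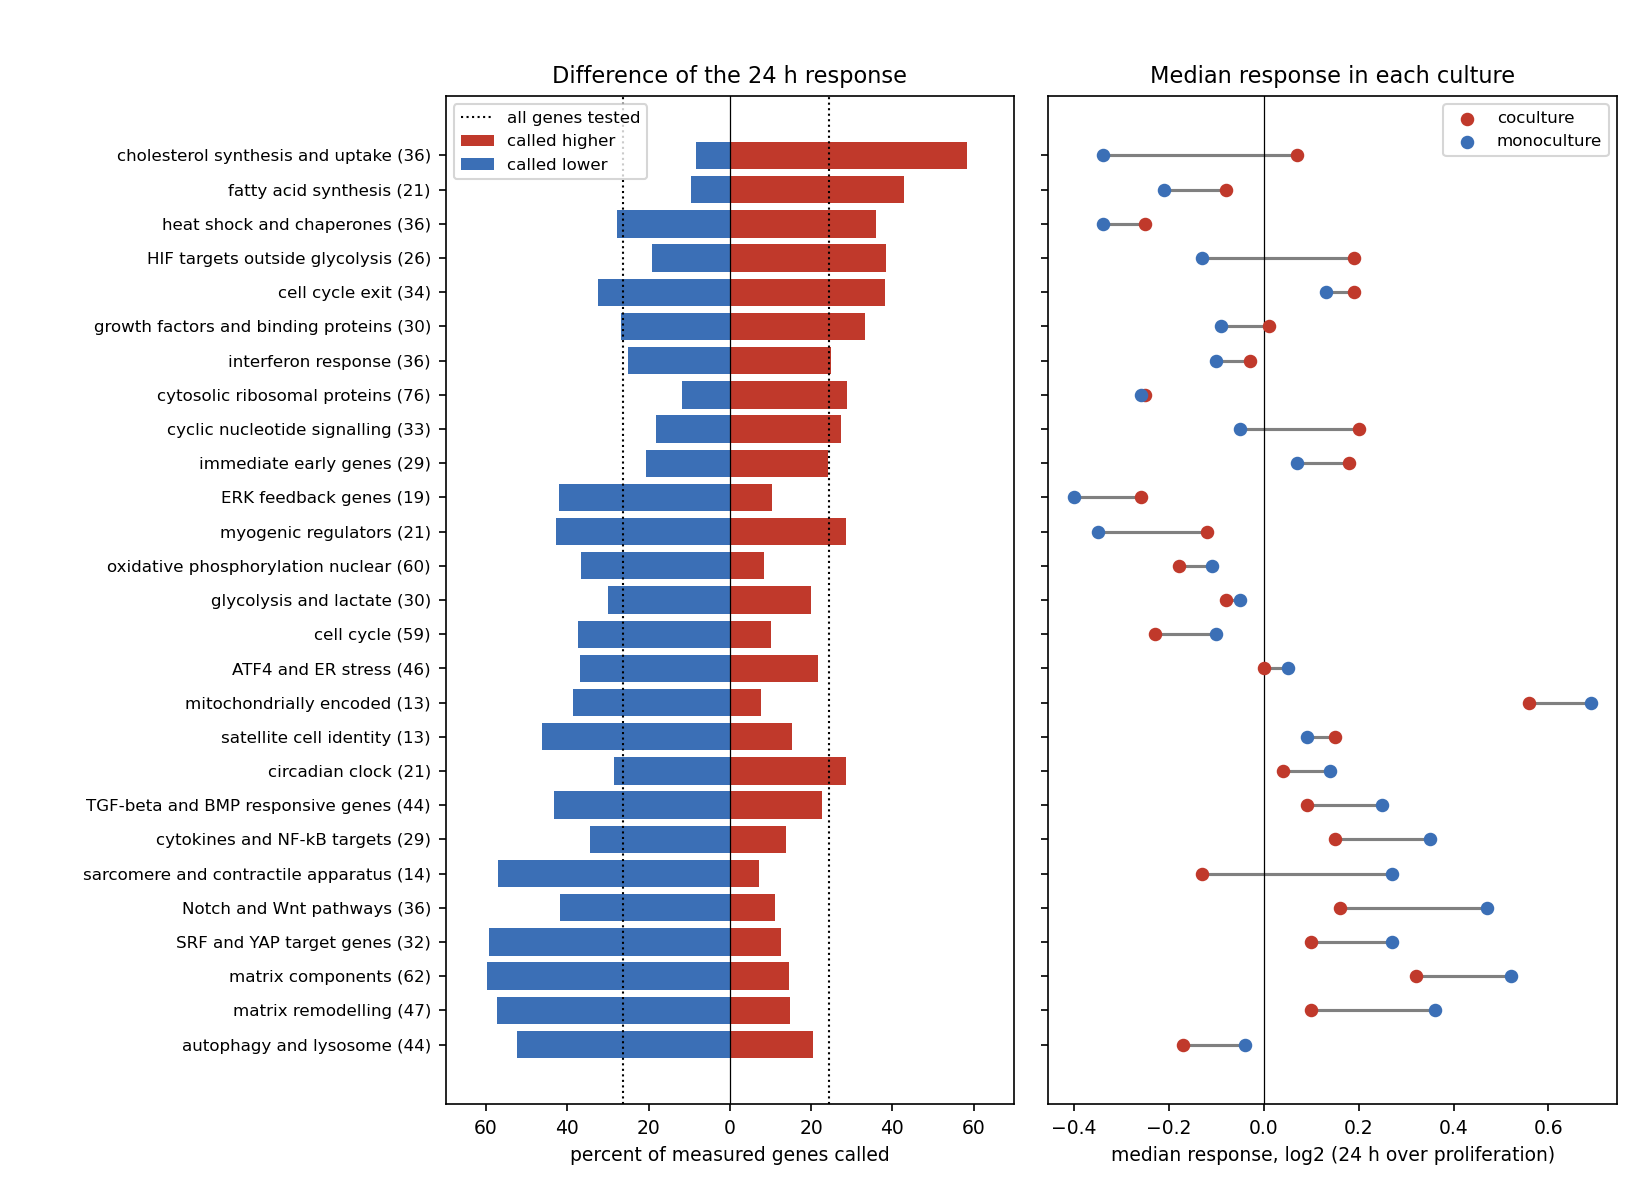
Left, percent of measured genes of each list called higher (red, right) or lower (blue, left) for the difference of the 24 h response, with dotted lines at 24.3% and 26.2% for all genes tested. Right, median log2 response (24 h over proliferation) of each list in coculture (red) and monoculture (blue), with the number of measured genes in brackets after each name. Of the lists drawn, which leave out the marker lists, cholesterol synthesis extends furthest to the right and matrix components furthest to the left.

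Genes that respond to TGF-beta and BMP, secreted signals that control matrix production and restrain muscle differentiation, had 10 of 44 members called higher and 19 lower (22.7% and 43.2%), with a median difference of -0.18. TGFBI, a secreted matrix adaptor protein, was at 20.5, 19.6, 21.8 and 23.5 CPM in coculture at 24 h and 16.7, 15.5, 16.1 and 15.1 CPM in coculture proliferation. In monoculture the values were 27.5, 24.7, 26.01 and 24.8 CPM in monoculture at 24 h and 8.01, 9.13, 7.60 and 7.11 CPM in monoculture proliferation. The 4 groups did not overlap, and the monoculture groups were the highest and the lowest. TGFBI rose in both cultures, by 0.44 in coculture and 1.69 in monoculture, a difference of -1.25 ± 0.139 (SE; adjusted p = 2.76e-08). LTBP2, which binds microfibrils, rose by 1.06 in monoculture and had 0.14 in coculture, which did not pass.

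ID1, a BMP target that blocks the binding of myogenic factors to DNA, fell further in coculture. It was at 1.44, 1.54, 1.66 and 1.76 CPM in coculture at 24 h and 7.86, 7.78, 7.02 and 6.68 CPM in coculture proliferation. Monoculture values were 1.57, 1.55, 2.001 and 1.82 CPM in monoculture at 24 h and 2.79, 3.69, 3.53 and 4.07 CPM in monoculture proliferation. The groups at 24 h overlapped, and in proliferation each coculture library lay above each monoculture library. The difference was -1.16 ± 0.285 (SE; adjusted p = 0.00118). ID3, a relative, differed by -0.31 (adjusted p = 0.0407), and lost its call under 13 of the 27 alternatives.

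Growth factors and their binding proteins had 10 of 30 members called higher and 8 lower (33.3% and 26.7%), with a median difference of 0.06, and 10 and 5 with library sizes alone. FGF7, a fibroblast growth factor made by mesenchymal cells, was at 29.5, 24.7, 22.1 and 21.7 CPM in coculture at 24 h and 20.1, 18.7, 19.6 and 18.9 CPM in coculture proliferation. Without fibroblasts it was at 7.48, 7.90, 8.58 and 9.29 CPM in monoculture at 24 h and 18.1, 17.8, 14.2 and 16.4 CPM in monoculture proliferation. The monoculture 24 h libraries were the low group and coculture at 24 h the high group, with no overlap between either and the rest. FGF7 rose by 0.34 in coculture and fell by 1.00 on the log2 scale in monoculture, a difference of 1.34 ± 0.152 (SE; adjusted p = 3.96e-08). IGFBP5, which binds insulin-like growth factors, differed by 0.90 ± 0.246 (SE; adjusted p = 0.00319), and by 0.61 (adjusted p = 0.069) with lane as a covariate. CSF1, the macrophage growth factor, fell by 0.99 on the log2 scale in coculture, with -0.12 in monoculture that did not pass.

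IRS2, an adaptor of the insulin and insulin-like growth factor receptors, had an enhanced rise. It was at 24.2, 26.8, 24.8 and 30.7 CPM in coculture at 24 h and 6.48, 7.27, 6.53 and 6.68 CPM in coculture proliferation. In monoculture it was at 14.5, 13.1, 18.6 and 16.3 CPM in monoculture at 24 h and 5.34, 4.74, 7.76 and 7.45 CPM in monoculture proliferation. Coculture at 24 h was highest and monoculture at 24 h next, and the proliferation groups overlapped. IRS2 rose by 1.97 in coculture and 1.29 in monoculture, a difference of 0.68 ± 0.175 (SE; adjusted p = 0.002).

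Cytokines and NF-kB targets had 4 of 29 members called higher and 10 lower (13.8% and 34.5%), with a median difference of -0.18, and 8 higher with the 16 libraries fitted alone. The chemokine CXCL5 was at 129.8, 121, 128 and 129.96 CPM in coculture at 24 h and 87.8, 86.01, 93.7 and 73.7 CPM in coculture proliferation. Its levels in cells grown alone were 116, 85.4, 91.7 and 97.8 CPM in monoculture at 24 h and 163, 202, 158 and 163 CPM in monoculture proliferation. Within coculture the 24 h libraries were above those of proliferation, and within monoculture they were below, a difference of 1.39 ± 0.224 (SE; adjusted p = 8.37e-06). IL1RL1, the receptor of interleukin 33, is not counted in this list. It fell by 2.60 in coculture and fell by 1.66 in monoculture on the log2 scale. SPP1, osteopontin, fell by 0.27 on the log2 scale in coculture and rose by 0.28 in monoculture. Its levels were 201, 208, 220.1 and 196 CPM in coculture at 24 h and 239.9, 249, 254 and 254 CPM in coculture proliferation. They were 773, 756, 694 and 752 CPM in monoculture at 24 h and 630.5, 637, 575 and 609 CPM in monoculture proliferation, so the coculture libraries were below all monoculture libraries at both times.

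Interferon response genes were called higher in 9 and lower in 9 of 36 members (25% each way), with a median difference of 0.04. MX1, an antiviral GTPase, was at 5.44, 14.04, 8.76 and 18.1 CPM in coculture at 24 h and 12.2, 12.1, 12.98 and 11.2 CPM in coculture proliferation. Cells grown alone had 2.26, 1.71, 2.79 and 1.51 CPM in monoculture at 24 h and 2.79, 1.99, 1.95 and 2.40 CPM in monoculture proliferation. MX1 was above monoculture in every coculture library, with no difference of response that passed the test (0.11 ± 0.406 (SE; adjusted p = 0.846)), and the 4 coculture 24 h libraries were widely spread. EIF2AK2, a kinase that senses double-stranded RNA, differed by 0.87, TAP1, a peptide transporter of antigen presentation, by -0.78, and PSMB9, an immunoproteasome subunit, by -0.70 ± 0.263 (SE; adjusted p = 0.028). PSMB9 lost its call under 8 of the 27 alternatives.

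Notch and Wnt pathway genes had 4 of 36 members called higher and 15 lower (11.1% and 41.7%), with a median difference of -0.24, and 2 and 16 with the trend against gene span removed. In coculture 15 rose and 4 fell, and in monoculture 27 rose and 3 fell. In the list 12 members were blunted rises. HES1, RBPJ and FZD8, described next, were not among them, so they do not stand for the list. HES1, the classic Notch target and a repressor, was at 19.6, 18.9, 18.4 and 18.1 CPM in coculture at 24 h and 31.8, 33.1, 31.5 and 33.3 CPM in coculture proliferation. The monoculture libraries had 30.98, 28.4, 31.01 and 26.6 CPM in monoculture at 24 h and 29.9, 32.9, 29.6 and 30.6 CPM in monoculture proliferation. The coculture 24 h libraries were below the other 3 groups, and the difference was -0.72 ± 0.088 (SE; adjusted p = 1.33e-07). RBPJ, the DNA-binding partner of Notch, differed by 0.71, with a fall in monoculture (-0.62), and FZD8, a Wnt receptor, by -0.71, with a fall of 0.44 on the log2 scale in coculture and a rise of 0.27 in monoculture.

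SRF and YAP target genes, which follow actin tension and cell spreading, had 4 of 32 members called higher and 19 lower (12.5% and 59.4%), with 16 blunted rises and a median difference of -0.24. ZYX, zyxin of focal adhesions, was at 988, 1006, 1005 and 991 CPM in coculture at 24 h and 1023, 1059, 1024 and 974 CPM in coculture proliferation. Against these, monoculture gave 1089.7, 1043, 1026 and 994 CPM in monoculture at 24 h and 687, 672, 685 and 720.3 CPM in monoculture proliferation. Monoculture proliferation was the low group and the other 3 groups overlapped, a difference of -0.62 ± 0.0568 (SE; adjusted p = 1.33e-09). MYH9, a nonmuscle myosin heavy chain, rose by 0.19 in coculture and 0.74 in monoculture.

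TEAD1, the DNA-binding partner of YAP, went the other way. It was at 35.8, 35.9, 31.6 and 34.2 CPM in coculture at 24 h and 30.4, 24.9, 29.5 and 33.8 CPM in coculture proliferation. In monoculture TEAD1 was at 16.5, 21.9, 22.2 and 22.4 CPM in monoculture at 24 h and 39.1, 31.5, 32.2 and 31.5 CPM in monoculture proliferation. Monoculture at 24 h was the low group, and the difference was 0.92 ± 0.133 (SE; adjusted p = 1.8e-06). NUAK2, an AMPK-related kinase induced by YAP, is not counted in the list of SRF and YAP targets. It was at 30.7, 33.96, 32.7 and 34.1 CPM in coculture at 24 h and 40.6, 41.4, 38.5 and 40.1 CPM in coculture proliferation. Corresponding monoculture levels were 60.4, 56.7, 60.6 and 58.6 CPM in monoculture at 24 h and 27.3, 26.2, 29.8 and 30.1 CPM in monoculture proliferation. The 4 groups did not overlap, and monoculture at 24 h was highest. NUAK2 fell by 0.29 on the log2 scale in coculture and rose by 1.06 in monoculture, a difference of -1.35 ± 0.082 (SE; adjusted p = 5.22e-13).

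Of 46 sarcomere and contractile genes 14 were listed in the table, of which 1 was called higher and 8 lower (7.14% and 57.1%), with a median difference of -0.20. Those lower numbered 3 with library sizes alone and 4 with the trend against gene span removed. Median responses were -0.13 in coculture and 0.27 in monoculture. DES, desmin, the intermediate filament of muscle, was at 86.2, 98.2, 107 and 109.7 CPM in coculture at 24 h and 122, 133, 125 and 122 CPM in coculture proliferation. Satellite cells alone gave 103, 100.2, 108 and 93.97 CPM in monoculture at 24 h and 72.5, 70.3, 70.9 and 74.7 CPM in monoculture proliferation. Coculture proliferation was the high group and monoculture proliferation the low group, and the 24 h groups overlapped between them. DES fell by 0.32 on the log2 scale in coculture and rose by 0.49 in monoculture, a difference of -0.81 ± 0.0875 (SE; adjusted p = 1.77e-08). TCAP, which anchors titin, and MYOM1, a component of the M band, differed by -1.23 and -1.14. Both were low, at 2.15 to 7.35 CPM outside monoculture proliferation. In monoculture proliferation TCAP was at 1.05 to 1.90 CPM and MYOM1 at 3.53 to 4.26 CPM. The difference of TCAP thus rests on a rise of 1.79 in monoculture from a very low level.

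ITGA7, the laminin receptor of satellite cells and myofibres, was at 57.2, 51.97, 62.6 and 59.8 CPM in coculture at 24 h and 27.7, 31.8, 28.6 and 36.7 CPM in coculture proliferation. Monoculture values were 140.3, 121, 135 and 126 CPM in monoculture at 24 h and 36.8, 34.2, 35.9 and 33.6 CPM in monoculture proliferation. The monoculture 24 h libraries were highest and coculture at 24 h next, and the proliferation groups overlapped. ITGA7 rose in both cultures, by 0.89 in coculture and 1.90 in monoculture, a difference of -1.01 ± 0.12 (SE; adjusted p = 9.27e-08). Among 13 measured genes of satellite cell identity 2 were called higher and 6 lower (15.4% and 46.2%), all 6 of them blunted rises, with a median difference of -0.16. FGFR1, a fibroblast growth factor receptor, differed by -0.73 ± 0.0585 (SE; adjusted p = 1.37e-10), and NCAM1, a cell adhesion molecule, by -0.64 (adjusted p = 2.52e-05). PAX3, a regulator of muscle progenitors, had a difference of 0.17 that did not pass (adjusted p = 0.11).

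Of 21 measured myogenic regulators, 6 were called higher and 9 lower (28.6% and 42.9%), with a median difference of -0.08. The higher ones included EYA4 (1.13, adjusted p = 3.75e-05), a transcriptional cofactor, RB1 (0.58, adjusted p = 6.15e-05), the retinoblastoma protein, and TCF12 (0.56, adjusted p = 4.78e-06), an E protein that pairs with myogenic factors. The lower ones included HDAC7 (-0.61, adjusted p = 8.32e-08), a class II deacetylase, and MEF2D (-0.59, adjusted p = 1.5e-07), a transcription factor of the MEF2 family. EYA4, RB1, TCF12, HDAC7 and MEF2D were chosen after their values were seen.

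Cell cycle genes had 6 of 59 members called higher and 22 lower (10.2% and 37.3%), with a median difference of -0.10. In coculture 2 rose and 36 fell, and in monoculture 8 rose and 21 fell. PLK1, a mitotic kinase, was at 30.2, 34.8, 31.8 and 33.04 CPM in coculture at 24 h and 37.8, 37.5, 38.8 and 37.5 CPM in coculture proliferation. The values without fibroblasts were 30.98, 40.1, 35.4 and 32.7 CPM in monoculture at 24 h and 24.2, 25.6, 21.4 and 23.97 CPM in monoculture proliferation. Monoculture proliferation was the low group and coculture proliferation was above monoculture proliferation. PLK1 fell by 0.22 on the log2 scale in coculture and rose by 0.56 in monoculture, a difference of -0.78 ± 0.0969 (SE; adjusted p = 1.84e-07). CDC20, which activates the anaphase-promoting complex, and CDT1, which licenses replication origins, also reversed, with differences of -0.74 and -0.83. FOXM1, a transcription factor of mitotic genes, differed by -0.75 and MKI67, the proliferation marker Ki-67, by -0.38 ± 0.112 (SE; adjusted p = 0.00589). PLK1, CDC20, CDT1, FOXM1 and MKI67 all rose in monoculture, where most members of the list did not, so they do not stand for it. In the list 4 members were reversed, 2 were blunted rises, 5 were blunted falls, 3 were enhanced and 14 responded in coculture only.

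MKI67 was at 121, 152, 132 and 125 CPM in coculture at 24 h and 155, 128, 123 and 143 CPM in coculture proliferation. For monoculture the levels were 118, 145, 139 and 141 CPM in monoculture at 24 h and 104, 108, 109.7 and 112 CPM in monoculture proliferation. Monoculture proliferation was lowest, and the other groups overlapped. Genes of cell cycle exit were called higher in 13 and lower in 11 of 34 members (38.2% and 32.4%), with a median difference of 0.10. The lower count was 6 with library sizes alone and 7 with the trend against gene span removed. More were higher than lower, an order that turned to 8 and 9 without coculture proliferation replicate 2, 10 and 11 without coculture proliferation replicate 3, and 10 and 11 with a stricter level filter. CCNG2, cyclin G2, which is linked to arrest, differed by 1.29 ± 0.161 (SE; adjusted p = 1.78e-07), with a fall in monoculture (-1.04). KLF9, a Kruppel-like factor, rose by 0.59 in coculture, and its difference of 0.68 did not pass without coculture proliferation replicate 2 (adjusted p = 0.0559). GADD45B, a stress-induced growth regulator, fell by 0.31 on the log2 scale in coculture and rose by 0.72 in monoculture.

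Nuclear genes of oxidative phosphorylation had 5 of 60 members called higher and 22 lower (8.33% and 36.7%), with a median difference of -0.09, and 13 members were reversed. None rose and 35 fell in coculture, and 17 rose and 26 fell in monoculture. With the trend against gene span removed, the counts were 15 higher and 18 lower, and with library sizes alone 11 and 18. Those higher numbered 10 without monoculture 24 h replicate 1 and 9 without coculture proliferation replicate 2. CYC1, cytochrome c1 of complex III, was at 94.1, 83.7, 87.3 and 87.6 CPM in coculture at 24 h and 105, 115, 104 and 103 CPM in coculture proliferation. In monoculture the values were 92.99, 91.7, 87.03 and 83.04 CPM in monoculture at 24 h and 67.2, 69.1, 74.7 and 70.9 CPM in monoculture proliferation. The 24 h groups overlapped, with coculture proliferation above and monoculture proliferation below them. The difference was -0.62 ± 0.0667 (SE; adjusted p = 1.98e-08). NDUFS7 of complex I and ATP5MC1 of the ATP synthase differed by -0.57 and -0.47. CYC1, NDUFS7 and ATP5MC1 all rose in monoculture, where more members of the list fell than rose, so they do not stand for it.

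Of the 13 mitochondrially encoded genes, 13 rose in coculture and 12 in monoculture, with median responses of 0.56 and 0.69. The difference was called higher for 1 and lower for 5 (7.69% and 38.5%), with a median of -0.15. Those lower numbered 3 with library sizes alone, 3 with lane as a covariate and 3 without monoculture 24 h replicate 3. COX3, a subunit of cytochrome oxidase, rose by 0.43 in coculture and 0.84 in monoculture. ATP8, the exception in monoculture, rose by 0.72 in coculture and had 0.04 in monoculture that did not pass, but its reading frame overlaps ATP6, so reads of the 2 genes may not be separable. Transcripts of the mitochondrial coding genes took 2.14 to 2.36% of counts in coculture at 24 h, 1.6 to 1.7% in coculture proliferation, 2.81 to 3.26% in monoculture at 24 h and 2 to 2.1% in monoculture proliferation.

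Cytosolic ribosomal protein genes mostly fell in both cultures. None rose and 69 of 76 fell in coculture, and 1 rose and 61 fell in monoculture, with median responses of -0.25 and -0.26. Of these genes 22 were called higher for the difference and 9 lower (28.9% and 11.8%), with a median difference of 0.02. The counts were 32 higher and 3 lower with the trend against gene span removed, 24 and 4 with library sizes alone, and 14 were lower without monoculture 24 h replicate 3. Those called higher included RPL35A (0.46), RPL22 (0.44) and RPL9 (0.42). Ribosomal protein genes have many near-identical pseudogenes, and how the counting shared reads among them is not given.

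Autophagy and lysosome genes had 9 of 44 members called higher and 23 lower (20.5% and 52.3%), with a median difference of -0.30. In coculture 7 rose and 24 fell, and in monoculture 16 rose and 17 fell. SQSTM1, the autophagy receptor p62, was at 175, 169, 181 and 175 CPM in coculture at 24 h and 287, 277, 290.1 and 290.4 CPM in coculture proliferation. Without fibroblasts it was at 287, 287, 282 and 286 CPM in monoculture at 24 h and 309, 284, 300.4 and 282 CPM in monoculture proliferation. Coculture at 24 h was below the other 3 groups, and the difference was -0.67 ± 0.0587 (SE; adjusted p = 6.48e-10). NEU1, a lysosomal sialidase, fell by 0.89 on the log2 scale in coculture, and MITF, a transcription factor of lysosomal genes, was called higher (0.77).

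Glycolysis and lactate genes had 6 of 30 members called higher and 9 lower (20% and 30%), with a median difference of -0.10, an order that turned to 8 and 6 with library sizes alone. HK3, a hexokinase, was at 7.36, 6.41, 6.24 and 6.48 CPM in coculture at 24 h and 5.34, 6.44, 5.96 and 5.48 CPM in coculture proliferation. Its levels in cells grown alone were 16.6, 11.8, 13.6 and 14.4 CPM in monoculture at 24 h and 6.46, 6.48, 5.75 and 6.32 CPM in monoculture proliferation. The monoculture 24 h libraries were above the other 3 groups, a difference of -0.99 ± 0.152 (SE; adjusted p = 4.22e-06). PDK1 and PDK3, kinases that inhibit pyruvate dehydrogenase, differed by 0.51 and 0.59. HIF targets outside glycolysis had 10 of 26 called higher and 5 lower (38.5% and 19.2%), with a median difference of 0.11. INSIG2 (0.76), described with the cholesterol genes, was among those higher. HMOX1 (-0.84) and DDIT4 (-0.82) were among those lower, so they do not stand for the list. HMOX1, heme oxygenase, fell by 1.61 in coculture and fell by 0.77 in monoculture on the log2 scale, and DDIT4, an inhibitor of mTORC1, rose by 1.03 in monoculture, with 0.20 in coculture that did not pass.

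Heat shock and chaperone genes had 13 of 36 called higher and 10 lower (36.1% and 27.8%), with a median difference of 0.11, against 17 and 5 with library sizes alone and 19 and 5 with the trend against gene span removed. HSPB7, a small heat shock protein of muscle, was at 39.6, 43.8, 40.8 and 42.9 CPM in coculture at 24 h and 60.7, 64.9, 62.5 and 60.9 CPM in coculture proliferation. Cells grown alone had 60.6, 69.8, 68.4 and 67.4 CPM in monoculture at 24 h and 41.05, 41.4, 42.6 and 46.8 CPM in monoculture proliferation. Coculture proliferation and monoculture at 24 h were high and the other groups low, and the difference was -1.21 ± 0.126 (SE; adjusted p = 9.94e-09). CHORDC1, an HSP90 cochaperone, and HSPA4L, of the HSP110 family, differed by 0.68 and 0.90. Genes of the ATF4 and ER stress responses had 10 of 46 called higher and 17 lower (21.7% and 37%), with a median difference of -0.11, and 13 and 11 with library sizes alone. SLC38A2, a transporter of neutral amino acids, rose by 0.39 in coculture and fell by 0.34 in monoculture on the log2 scale. SDF2L1, an ER chaperone partner, fell by 0.21 on the log2 scale in coculture and rose by 0.56 in monoculture.

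Circadian clock genes had 6 of 21 called higher and 6 lower (28.6% each way), with a median difference of -0.17. The split was 6 higher and 3 lower with library sizes alone and 4 and 7 with the trend against gene span removed. PER1, a clock repressor induced by serum and named after its values were seen, was at 38.2, 37.3, 36.9 and 35.97 CPM in coculture at 24 h and 9.18, 7.59, 8.16 and 7.93 CPM in coculture proliferation. The monoculture libraries had 31.5, 32.2, 32.96 and 32.6 CPM in monoculture at 24 h and 8.01, 5.93, 5.70 and 7.01 CPM in monoculture proliferation. All 24 h libraries were above all proliferation libraries. PER1 rose by 2.19 in coculture and 2.29 in monoculture, and the difference of -0.10 did not pass (adjusted p = 0.461). NR1D1, the repressor REV-ERB alpha, rose by 0.83 in monoculture with -0.03 in coculture that did not pass, CLOCK, a core activator, differed by 0.62, and BHLHE40, a clock-linked repressor, fell by 0.19 on the log2 scale in coculture and rose by 0.32 in monoculture.

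Cyclic nucleotide signalling genes had 9 of 33 called higher and 6 lower (27.3% and 18.2%), with a median difference of 0.02. PDE4B, which breaks down cyclic AMP, was at 6.997, 5.46, 4.12 and 5.22 CPM in coculture at 24 h and 5.58, 3.47, 3.67 and 3.04 CPM in coculture proliferation. Against these, monoculture gave 0.817, 0.752, 0.421 and 0.377 CPM in monoculture at 24 h and 1.99, 1.35, 1.11 and 1.27 CPM in monoculture proliferation. Coculture libraries were above all monoculture libraries at both times. The difference of 1.70 ± 0.508 (SE; adjusted p = 0.0063) rested on a fall in monoculture (-1.22), where levels were at most 1.99 CPM, with 0.48 in coculture that did not pass. PRKAR2B, a regulatory subunit of the cyclic AMP kinase, differed by 0.98 ± 0.074 (SE; adjusted p = 5.7e-11), and PDE1B, a calmodulin-dependent phosphodiesterase, fell by 0.29 on the log2 scale in coculture and rose by 0.87 in monoculture.

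Several genes at the ends of the ranking belong to no list. CCDC3, a secreted coiled-coil protein, was at 42.3, 31.999, 33.3 and 38.4 CPM in coculture at 24 h and 13.7, 13.4, 14.04 and 9.54 CPM in coculture proliferation. Corresponding monoculture levels were 6.41, 7.82, 7.53 and 7.53 CPM in monoculture at 24 h and 5.96, 6.88, 6.23 and 7.79 CPM in monoculture proliferation. Coculture at 24 h stood highest and coculture proliferation next, and the monoculture groups overlapped, a difference of 1.40 ± 0.191 (SE; adjusted p = 7.18e-07). GCA, the calcium-binding protein grancalcin, fell by 1.49 on the log2 scale in monoculture, with -0.05 in coculture that did not pass. TSHZ2, a zinc finger protein, and ERICH5, a glutamate-rich protein, rose in coculture, by 1.26 and 0.83, without a monoculture response that passed.

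At the low end, IGSF9, an adhesion protein of the immunoglobulin superfamily, was at 29.2, 34.8, 35.8 and 32.4 CPM in coculture at 24 h and 16.6, 17.1, 21.1 and 19.8 CPM in coculture proliferation. Satellite cells alone gave 47.9, 44.2, 54.3 and 42.997 CPM in monoculture at 24 h and 11.2, 9.87, 9.13 and 10.05 CPM in monoculture proliferation. The monoculture 24 h libraries were highest, followed by coculture at 24 h, coculture proliferation and monoculture proliferation, without overlap. IGSF9 rose by 0.84 in coculture and 2.24 in monoculture, a difference of -1.40 ± 0.139 (SE; adjusted p = 4.73e-09). PTPRM, a receptor phosphatase of cell contacts, MGAT5B, a glycosyltransferase, CMKLR1, the chemerin receptor, and SLC26A10, of an anion transporter family, were also blunted rises, with differences of -1.27, -1.24, -1.19 and -1.25. TXNIP, the thioredoxin inhibitor, named after its values were seen, rose by 1.11 in coculture and 1.63 in monoculture.

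FLVCR2, a membrane transporter, fell further in coculture. It was at 1.14, 1.54, 1.43 and 1.26 CPM in coculture at 24 h and 7.62, 6.73, 6.53 and 8.64 CPM in coculture proliferation. In monoculture FLVCR2 was at 3.64, 4.39, 4.37 and 3.33 CPM in monoculture at 24 h and 8.45, 6.38, 8.60 and 8.72 CPM in monoculture proliferation. The difference was -1.44 ± 0.245 (SE; adjusted p = 1.9e-05), with coculture at 24 h below the other 3 groups. ERP27, of the protein disulfide isomerase family, fell by 1.30 on the log2 scale in coculture, with 0.11 in monoculture that did not pass. OSGIN1, induced by oxidative stress, fell by 0.37 on the log2 scale in coculture and rose by 0.75 in monoculture.

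Markers of other cell types moved as well. Of 15 smooth muscle and pericyte markers, 2 were called higher and 9 lower (13.3% and 60%), with a median difference of -0.30, and CSPG4, the pericyte proteoglycan NG2, differed by -1.07 (adjusted p = 8.49e-09). Their summed level was 22300 to 23800 CPM in coculture at 24 h, 23800 to 25700 in coculture proliferation, 23200 to 26300 in monoculture at 24 h and 20400 to 20900 in monoculture proliferation. Of 16 adipocyte markers 7 were listed, with none called higher and 4 lower, and of 16 endothelial markers 4 were listed, with ERG (-0.61) the 1 called lower. Of 20 leukocyte markers CD68 and FCER1G were listed, with a summed level of 1.32 to 3.26 CPM and no call. The part of these markers in the results was not tested.

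The direction of the difference went with the length of a gene on the chromosome. The median span from gene start to end was 44.3 kb for genes called higher and 14.9 kb for genes called lower, against 23.2 kb over all genes tested. Blunted falls had a median span of 43.9 kb and blunted rises of 16.1 kb. When a smooth trend with gene span was removed from each library, 5492 genes were called, 4700 of them among the 6026 and all 4700 with the same sign. Chromosomes differed in the same way. On chromosome 29, 8.64% of 324 genes were called higher and 49.7% lower, with a median span of 12.7 kb, and on chromosome 9, 39.8% of 284 genes were higher and 5.28% lower, with a median span of 39.3 kb. With the span trend removed the shares were 8.33% and 38.3% on chromosome 29 and 32.7% and 10.2% on chromosome 9.

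**Figure D4:**
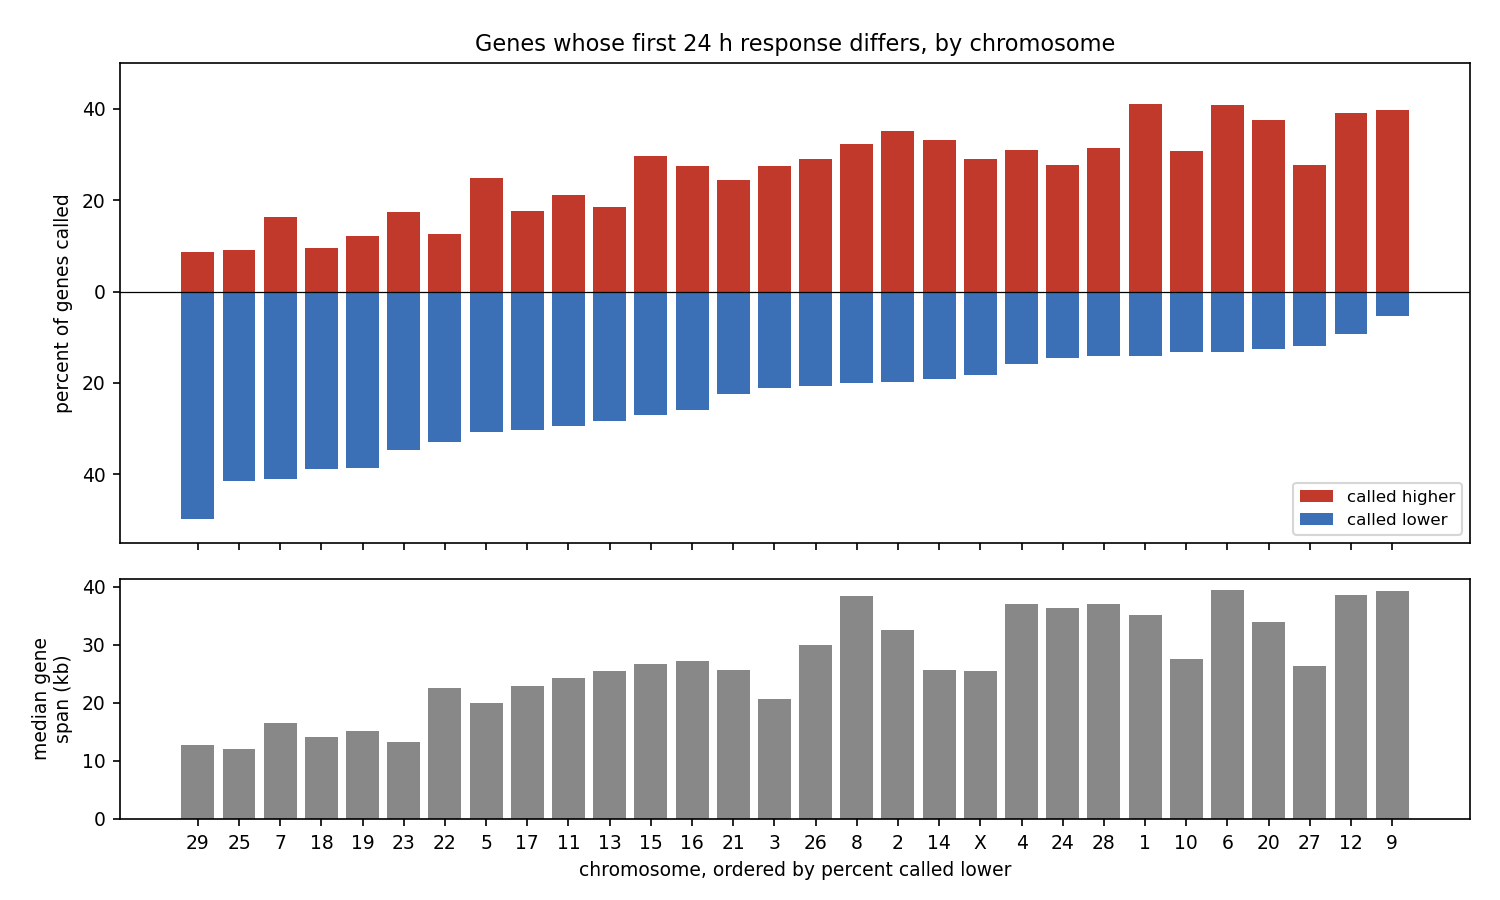
Top, percent of the genes of each chromosome called higher (red, up) or lower (blue, down) for the difference of the 24 h response. Bottom, median gene span in kb, with chromosomes ordered by the percent called lower, so that chromosome 29, with a median span of 12.7 kb, is at the left and chromosome 9, with 39.3 kb, at the right.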

How the data were processed

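RNA sequencing of total RNA (400 ng per library, Vazyme VAHTS Universal V8 kit, per the labels) measured 24 libraries, of which 16 enter the comparison. The authors deposited a table of whole-number counts per gene and library. Per the submitters' processing notes, the tools were FastQC, STAR, RSEM and DESeq2, whose versions are not given. The counts may thus be rounded RSEM estimates. The genome build is likewise not given in the sources used here. Symbols, gene types and start and end coordinates come from a table the authors deposited with gene annotation. Of 36 library columns, 12 matched no label and were not used. The table lists 11937 genes, 11480 of them protein coding and 893 without a symbol, each with at least 6 counts in every library used.

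In R 4.3.3 with edgeR 4.0.16 (limma 3.58.1), TMM factors scaled the libraries, filterByExpr removed 0 genes, and all 24 libraries entered a model with a mean for each group (18 residual degrees of freedom, biological coefficient of variation 6.86%). Contrasts were tested with the quasi-likelihood F test, with Benjamini-Hochberg adjustment over all genes and calls at an adjusted p under 0.05. An SE is the absolute log2 fold change divided by the root of F, and levels are TMM-scaled CPM. The procedure was tested on simulated data in which few genes were given a difference. It was not tested there with a change as broad as the one called here. Pairs of replicates differed by more than sampling noise (chi-square per degree of freedom from 2.16 to 144). The values of 117, 125 and 144 belonged to the pairs with coculture 24 h replicate 2. The largest value of any other pair in the 4 groups was 17. Single-library values carry counting error and more, so no interval is given for them.

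The genes and lists described were chosen with earlier results of these data known. The naming rule takes, among called genes with a symbol of their own and at least 5 CPM in the highest group, the 12 highest and 12 lowest differences, the 4 largest per class, up to 4 per list described, and a few fixed genes whatever they did, of which 7 are described. ID3, NCAM1, PAX3, EYA4, RB1, TCF12, HDAC7, MEF2D, CSPG4, ERG and 8 genes (CYP51A1, ECM2, INSIG1, NR4A1, OMD, PER1, SREBF2 and TXNIP) were named after their values were seen. The lists described are given by counts, shares and medians without a test, and the shares and median over all genes are given once. Alternatives were other scalings, DESeq2 1.42.0, the 4 groups alone, other filters, lane and a replicate block. Others left out of the fit the nuclear ribosomal RNA and mitochondrial genes, or each of the 16 libraries. The gene span offset was added after the data were seen. No sequences are shown, and some genes that the rule names are not reported here.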

Additional observations from a re-analysis of the deposited data

Results flagged for a closer look

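The response over the first 24 h differed between coculture and monoculture for 6026 genes, by the test of the difference itself that the report describes. The samples of a group were also compared with each other: a library stood apart where its gap to the nearest of the other 3 libraries took a larger part of the group's range than Dixon's critical value allows. Of 492 groups of 4 libraries examined, 29 held such a library, against 25 to be had by chance at about 1 in 20.

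Replicate 2 of coculture 24 h had the highest level of IL1RL1 at 1.85 CPM against 1.32 to 1.40 CPM. Replicate 3 of coculture 24 h had the lowest level of ID3 at 35.98 CPM against 40.4 to 40.8 CPM, and the highest level of PLAUR at 54.5 CPM against 51.3 to 51.6 CPM. Replicate 4 of coculture 24 h had the highest level of SDF2L1 at 14.1 CPM against 12.7 to 12.9 CPM. Replicate 2 of coculture 24 h also had 4.07% of counts in nuclear ribosomal RNA, where the other replicates of that group had 0.708 to 0.815%. Without it 5670 genes were called for the difference and 5579 of the 6026 were shared.

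Replicate 1 of coculture proliferation had the lowest level of INSIG2 at 12.8 CPM against 15.3 to 15.4 and PRKAR2B at 40.9 CPM against 42.8 to 43.04 CPM. Replicate 2 of coculture proliferation had the highest level of RPL35A at 132 CPM against 118 to 120.5 and RPL9 at 663 CPM against 603 to 612 CPM. Replicate 3 of coculture proliferation had the lowest level of HDAC7 at 113 CPM against 119 to 120.05 CPM, and the highest level of SPRED1 at 17.2 CPM against 12.5 to 12.97 CPM. Replicate 4 of coculture proliferation had the lowest level of CCDC3 at 9.54 CPM against 13.4 to 14.04, CDC20 at 35.9 CPM against 38.8 to 39.1, FADS1 at 12.2 CPM against 12.95 to 13.03 and PSMB9 at 2.80 CPM against 4.08 to 4.33 CPM.

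Replicate 1 of monoculture 24 h had the lowest level of ADAMTS5 at 5.15 CPM against 8.90 to 9.32, CCND1 at 24.2 CPM against 30.9 to 31.7, TAP1 at 22.2 CPM against 24.4 to 24.8 and TEAD1 at 16.5 CPM against 21.9 to 22.4 CPM, and the highest level of PDK1 at 23.1 CPM against 19.3 to 19.8 and PLAUR at 65.9 CPM against 58.1 to 59.1 CPM. Replicate 2 of monoculture 24 h had the lowest level of SLC38A2 at 366 CPM against 396 to 401 CPM. Replicate 3 of monoculture 24 h had the highest level of PDGFRA at 52.02 CPM against 48.9 to 49.4 CPM.

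Replicate 1 of monoculture proliferation had the lowest level of ELOVL6 at 18.8 CPM against 21.2 to 21.6 CPM, and the highest level of COL7A1 at 8.32 CPM against 5.88 to 6.27 and TEAD1 at 39.1 CPM against 31.5 to 32.2 CPM. Replicate 2 of monoculture proliferation had the lowest level of FLVCR2 at 6.38 CPM against 8.45 to 8.72 CPM, and the highest level of CXCL5 at 202 CPM against 158 to 163 CPM. Replicate 4 of monoculture proliferation had the highest level of HDAC7 at 102 CPM against 94.9 to 95.4 CPM.

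Replicate 1 of monoculture 24 h was the library apart in 6 of the 28 cases among genes, the most of any library. Leaving it out gave 5905 called genes, 5656 of them shared with the 6026. ADAMTS5, CCND1, TAP1, TEAD1, PDK1 and PLAUR kept their calls without it.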

How the results depend on the processing

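Across 27 alternatives the difference of the responses was called for 5479 to 6156 genes, against 6026, and every called gene shared with the 6026 kept its sign. The fit without the low count filter is among the 27. That filter removed 0 genes, so this fit repeats the main fit and its values, counted below, could not differ. The 120 named genes gave 3236 values under alternatives, of which 3207 kept their direction and side of the threshold, 25 lost their call and 4 turned in sign. The 4 are genes without a called difference: MX1 stood at -0.15 with lane as a covariate, -0.15 without the lane 7 libraries and -0.21 without coculture 24 h replicate 4 (-0.21 to 0.33 over the libraries left out), and PER1 at 0.03 with the gene span offset. Both lane settings gave nearly the same estimates, because only coculture 24 h had libraries on both lanes, so they are not separate checks. The calls lost belong to ID3, PSMB9, IGFBP5, KLF9 and SREBF2. The reversed class moved from 605 genes to 401 with library sizes alone and 401 without the lane 7 libraries, and the cause was not tested.

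Leaving out each of the 16 libraries gave 5529 to 5906 called genes, 2674 to 2826 higher and 2855 to 3081 lower, with 7775 to 8189 for the monoculture response and 4480 to 5255 for the coculture response. Blunted genes numbered 4085 to 4330, enhanced 141 to 176, gained 574 to 782 and reversed 443 to 608. The replicate block called 5929 genes, 5875 of them among the 6026. Deviations of same-numbered libraries had mean correlations between -0.036 and -0.002, against 0.005 for libraries with different numbers. Only 1 of 16 libraries correlated best with its own number. No effect shared by same-numbered libraries was thus seen, which does not tell whether they were set up together. Genes with few counts and a spread shared by all groups limit the precision of small differences.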
